A study of Mus musculus with 2 samples.

Results

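The genes followed here belong to the glutathione and thioredoxin antioxidant systems of TEa T cells and were chosen by name, as Gstm1, Gsto1, Gpx1, Gpx4, Gclc, Gclm, Gsr, Txn1, Txnrd1 and Prdx1. All 10 were found among the 35275 genes of the deposited read count table, and all 10 were among the 9999 genes whose reads summed to 50 or more over the libraries, which are called measured here. TEa cells are CD4 T cells from C57BL/6 mice that carry a transgenic receptor specific for a peptide of the I-E alpha chain. For the group that the submitters titled Effector, the hosts were wild-type C57BL/6 mice carrying a Balb/c skin transplant. For the group titled Exhaust, called exhausted here, the cells went into CB6F1 hosts, the hybrid offspring of C57BL/6 and Balb/c, which inherit the antigen. The series text sets moderate against abundant antigen. TEa cells were sorted from splenocytes, and each group was 1 library, with 7844445 reads counted in the effector and 8508129 in the exhausted library. No age, time after transfer or number of pooled recipients is given in the sources used here. Recipient strain, skin graft and amount of antigen differ together between the groups and cannot be told apart. With 1 library per group no value has a replicate check and no p-value is given. Intervals are exact 95% counting intervals, which cover counting error only and treat reads as independent molecules although amplified copies may be among them.

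Glutathione is made from glutamate, cysteine and glycine. Glutamate-cysteine ligase, a pair of the catalytic subunit GCLC and the modifier subunit GCLM, carries out the rate-limiting step. Glutathione peroxidases spend glutathione to reduce peroxides, glutathione reductase (GSR) restores it with NADPH, and glutathione S-transferases attach it to electrophiles. Thioredoxin (TXN1) reduces disulfides in peroxiredoxins and other proteins and is itself restored by the selenoenzyme thioredoxin reductase (TXNRD1), again with NADPH. The transcription factor NRF2 drives many of these genes through the antioxidant response element. In T cells, GCLC is known for its role in the metabolic growth after activation, GPX4 for protecting cells from lipid peroxidation, and TXNRD1 for the supply of DNA precursors in proliferating cells.

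A single gene of the 10, Gstm1, was far higher in the exhausted library, and Gsr was lower. The other 8 differed by less than 2-fold. A gene was called higher or lower when the ratio of scaled reads was at least 2-fold and its counting interval excluded equality. By that rule 1 of the 10 was higher and 1 was lower, against 6.65% of all measured genes higher, 7.07% lower and 13.7% in either direction. The 10 genes had 11046 reads together in each library, which was 1408 reads per 1000000 counted for effector and 1298 for exhausted cells. Their median log2 ratio of exhausted to effector was -0.21, against a median of -0.002 over all measured genes. Of the 10, 9 were below 0, against 5016 of the 9999 measured genes. Among those 9, the intervals of Gclc, Prdx1, Gpx4 and Gsto1 included equality.

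**Figure D1:**
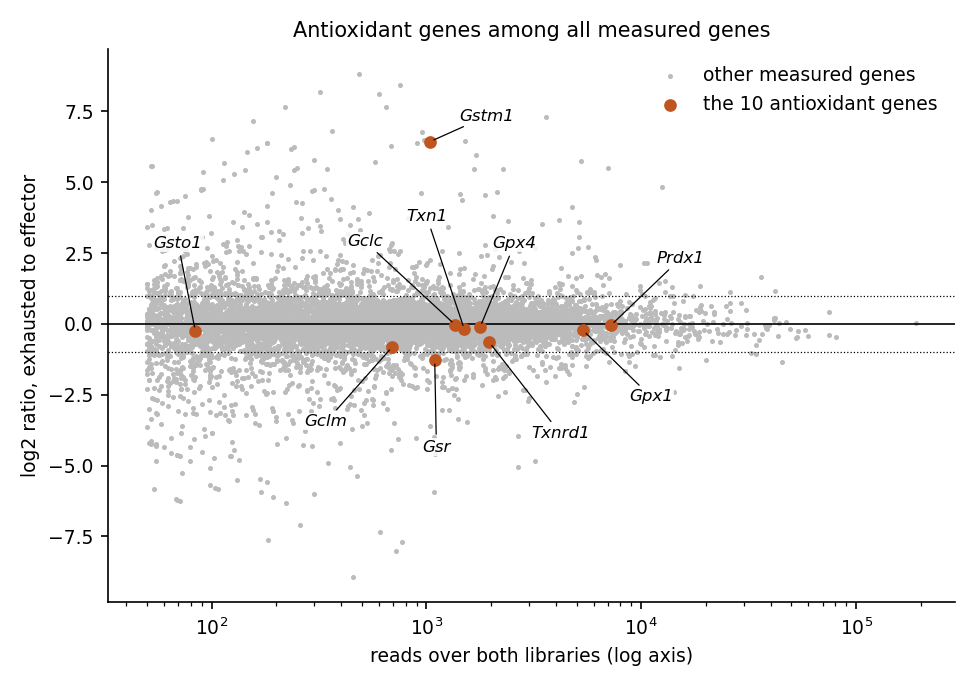
Each point is a measured gene, with its reads over both libraries on a log axis (x) and the log2 ratio of scaled reads of exhausted to effector (y). The 10 antioxidant genes are orange, and dotted lines mark 2-fold. Gstm1 lies at a log2 ratio of 6.43, Gsr at -1.27, and the other 8 lie between -0.81 and -0.03.

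Promoter sequence was looked at first, because NRF2 acts through a short motif and the members can be compared for it. RefSeq promoter windows of build GRCm38.p6, from 250 bases before to 50 after an annotated transcript start, were matched for 8 of the 10 genes, with 14 windows in all. The antioxidant response element core TGACNNNGC was searched on both strands. It was found in 3 of the 8 genes, Gclm, Prdx1 and Txnrd1, which is 37.5%. This compares with 3781 of the 27025 genes with a window in the table and 17.2% of those that were measured. A gene was counted when any of its windows held the core, and genes differ in their number of windows. By window, the core was in 21.4% of the 14 windows of these genes and in 14.6% of those of measured genes. A match of these letters is a description of the window and not a binding site. The stretches that hold the 3 matches are shown with the match in capitals, each read along the strand of its gene, and all 3 matches lie on the opposite strand.
Gclm (chr3:122245397-122245457, plus strand): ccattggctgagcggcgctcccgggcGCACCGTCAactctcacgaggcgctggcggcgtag
Prdx1 (chr4:116685440-116685500, plus strand): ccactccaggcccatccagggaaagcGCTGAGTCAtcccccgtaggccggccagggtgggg
Txnrd1 (chr10:82859088-82859148, plus strand): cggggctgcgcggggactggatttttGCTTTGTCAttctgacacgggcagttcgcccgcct

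The 3 genes that share the motif all had log2 ratios below 0, of different size. So did Gsto1 (-0.25), Gpx1 (-0.23), Txn1 (-0.19) and Gpx4 (-0.12), whose windows held no core motif. In all, 9 of the 10 genes were below 0, against 5016 of the 9999 measured genes. Gclm and Txnrd1 had log2 ratios of -0.81 and -0.65, and Prdx1 had -0.05. Neither of the 2 Gstm1 windows held the core motif. The last 120 bases before the Gstm1 transcript start that matches the gene's end in the count table are shown for comparison because this gene carried the largest difference of the 10, in lower case throughout since no match was found.
Gstm1 (chr3:108017974-108018093, minus strand): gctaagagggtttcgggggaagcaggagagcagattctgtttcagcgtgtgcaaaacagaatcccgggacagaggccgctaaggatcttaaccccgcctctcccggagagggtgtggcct

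Among the enzymes that use glutathione for conjugation, Gstm1 stood out. Gstm1 encodes a mu class glutathione S-transferase (ENSMUSG00000058135, mm10 chr3:108012255-108017973). It had 11 effector reads and 1029 exhausted reads. That was 86.5-fold higher in the exhausted library, with a counting interval of 48.1 to 174, and ranked 14 from the top among the 9999 measured genes. The low effector count sets the width of that interval. In these sorted bulk cells, more cells with Gstm1 RNA and more Gstm1 RNA per cell cannot be told apart.

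The mu class genes lie side by side and resemble one another, so the count was read against its relatives. In the GENCODE M21 transcripts, 19.9% of the 50-base stretches of Gstm1 also occur in another gene's transcripts, mainly the processed pseudogene Gstm2-ps1 (14.9%) and Gstm3 (8.60%). Gstm2, Gstm3, Gstm5 and Gstm6 had 0 reads in both libraries, which allows up to 3 reads each. Gstm7 had 1 and 5 reads. No count was available for Gstm2-ps1, so reads shared with it could not be checked. Gstm4 had 62 effector and 95 exhausted reads, 1.42-fold more with an interval of 1.02 to 1.98. How reads that fit several genes were counted is not stated in the labels.

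The make-up of the mu class therefore differed between the libraries, whatever the scaling between them. Gstm1 held 14.9% of the mu class effector reads (11 of 74, 7.66 to 25.04%) and 91.1% of the exhausted reads (1029 of 1129, 89.3 to 92.7%). Gstm4 held 83.8% (73.4 to 91.3%) and 8.41% (6.86 to 10.2%). Most mu class reads thus came from Gstm4 in effector cells and from Gstm1 in exhausted cells. Over the whole transferase list, Gstm1 held 0.360% of 3055 effector reads (0.180 to 0.643%) and 26.5% of 3878 exhausted reads (25.2 to 27.9%).

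**Figure D2:**
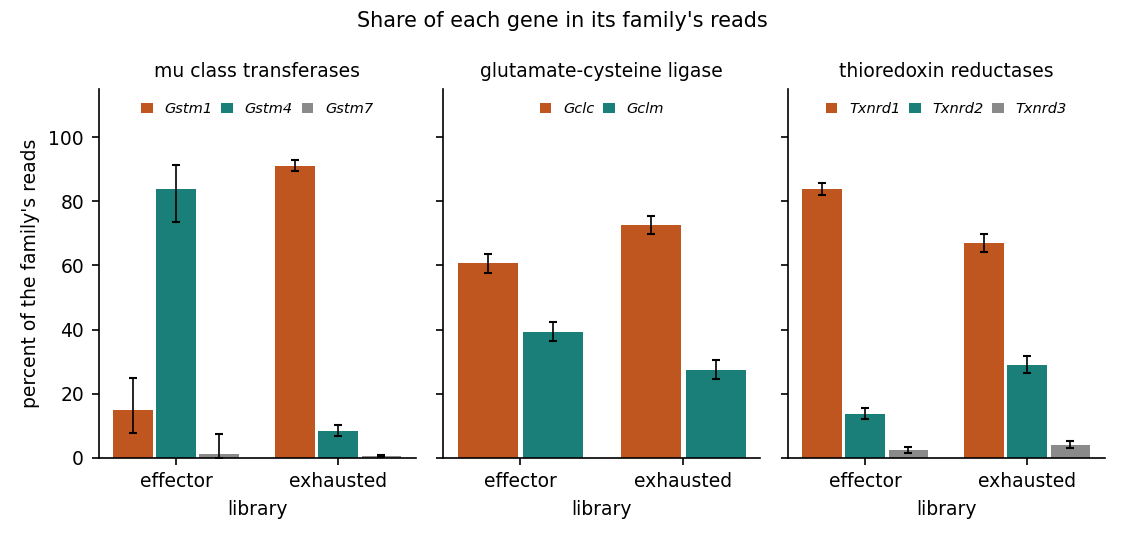
Bars give the percent of a family's reads held by each gene in each library (y), with exact 95% counting intervals, for mu class transferases, glutamate-cysteine ligase and thioredoxin reductases. From the effector to the exhausted library, Gstm1 goes from 14.9% to 91.1% of mu class reads, Gclc from 60.6% to 72.6% of ligase reads and Txnrd2 from 13.8% to 29.0% of reductase reads.

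Gsto1, which encodes an omega class transferase that can also reduce mixed disulfides of glutathione (chr19:47854970-47864790), had the fewest reads of the 10 when both libraries are added. It had 44 effector and 40 exhausted reads. The ratio of exhausted to effector was 0.840 with an interval of 0.534 to 1.32, so a difference of up to 1.87-fold lower was not resolved at this depth. Among the 10 other measured transferase genes, 1 was higher and none lower, and their median log2 ratio was 0.045. The higher gene was Gstt3, of the theta class, with 11 effector and 63 exhausted reads (5.29-fold, 2.77 to 11.1). Gstp1, the pi class gene with the most reads, had 1127 and 1238 reads (1.02-fold, 0.936 to 1.10), and the microsomal gene Mgst2 had 621 and 362 (1.86-fold fewer, 1.63 to 2.12).

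For glutathione synthesis, the 2 subunits of glutamate-cysteine ligase differed from each other. The catalytic subunit gene Gclc (chr9:77754535-77794485) had 661 effector and 699 exhausted reads, a ratio of 0.978 with an interval of 0.878 to 1.09. The modifier subunit gene Gclm (chr3:122245557-122269984) had 429 and 264 reads and was 1.76-fold lower in the exhausted library (1.504 to 2.06). Gclm thus missed the 2-fold rule, with an interval that reached just past 2-fold.

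The share of Gclc in the ligase reads was 60.6% for effector (661 of 1090, 57.7 to 63.6%) and 72.6% for exhausted cells (699 of 963, 69.7 to 75.4%). These intervals do not overlap, and the share does not depend on how the libraries are scaled. Gclm exons overlap a noncoding transcript on the other strand, Gm17494, over 4.71% of their length, and that gene had 8 and 16 reads. Of the 8 other measured genes for making and breaking down glutathione, 1 was lower and none higher, with a median log2 ratio of -0.29. The lower gene was Ggt1, which encodes a gamma-glutamyltransferase that breaks down glutathione outside the cell, with 160 and 33 reads (5.24-fold, 3.59 to 7.88). Mat2a, which encodes the enzyme that makes S-adenosylmethionine, had 3740 and 6149 reads (1.52-fold more, 1.46 to 1.58). Slc3a2, the heavy chain of amino acid transporters that include the cystine carrier, had 890 and 1017 reads (1.06-fold, 0.965 to 1.16). Slc7a11, the light chain of that cystine carrier, named after its value was seen, had 1 and 0 reads and was not measured.

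Regeneration of glutathione was represented by Gsr, the gene of glutathione reductase (ENSMUSG00000031584, chr8:33652523-33698163), the gene of the 10 that was called lower. It had 755 effector reads and 338 exhausted reads. That was 2.42-fold lower in the exhausted library, with an interval of 2.12 to 2.75 that lies wholly beyond 2-fold. Gsr ranked 492 from the bottom among the measured genes. None of its 50-base stretches occurs in another annotated gene, and its exons overlap no other gene.

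Both libraries carried few reads of marker genes of other cell types. Summed reads of some marker lists were lower in the exhausted library, and those of others were higher. The 50 marker genes of other cell types had 726 effector and 687 exhausted reads in all, 92.5 and 80.8 per 1000000, against 16874 and 16135 per 1000000 for 11 T cell genes. Summed reads of the 8 lists ranged from 22 to 164 for effector and from 16 to 239 for exhausted cells. Erythroid and platelet markers had 120 and 16 reads, neutrophil markers 107 and 54, B cell markers 22 and 24, plasma cell markers 47 and 22, and dendritic cell markers 39 in each. CD8 T cell markers had 164 and 81 reads, all from Cd8b1, which was 2.19-fold lower in the exhausted library (1.67 to 2.89). Macrophage and monocyte markers had 133 and 212 reads, of which Itgam gave 22 and 183. The other genes of that list had fewer exhausted than effector reads, except Cd68 with 8 and 11. Among the neutrophil markers, Mpo had 39 and 49 reads, and the others with reads had fewer in the exhausted library. NK cell markers had 94 and 239 reads, of which Klrb1c gave 36 and 229. Other genes of that list went the other way, with 53 and 10 reads for Eomes and 5 and 0 for Ncr1. Ms4a1, Ly6g and Cd8a were at 0 in both libraries, and Csf1r, the defining receptor gene of macrophages, had 18 and 4 reads. Which cells the marker reads came from, and the part of other cells in the difference of Gsr or of Gstm1, were not tested.

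The peroxidase genes were close to equal. Gpx1, which encodes the cytosolic selenoenzyme that reduces hydrogen peroxide (chr9:108339080-108340338), had 2793 effector and 2570 exhausted reads. It was 1.18-fold lower in the exhausted library (1.11 to 1.24). Gpx4, which encodes the selenoenzyme that reduces lipid hydroperoxides in membranes (chr10:80047166-80056439), had 891 and 886 reads (1.09-fold lower, 0.990 to 1.20). Gpx4 is the gene of the 10 with the most shared sequence, since 51.4% of its 50-base stretches also occur in other annotated genes, chiefly the pseudogene Gpx4-ps2, which was not analysed here.

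Of the 8 other measured genes for peroxidases, glutaredoxins and related enzymes, 1 was lower and none higher, with a median log2 ratio of -0.17. The lower gene was Glrx, which encodes glutaredoxin 1, the cytosolic enzyme that removes glutathione from proteins. Glrx had 671 and 161 reads and was 4.51-fold lower in the exhausted library (3.79 to 5.39). Glrx3 had 852 and 884 reads (1.04-fold lower, 0.948 to 1.15). Adh5, which encodes the S-nitrosoglutathione reductase, had 1263 and 958 reads (1.43-fold lower, 1.31 to 1.55).

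**Figure D3:**
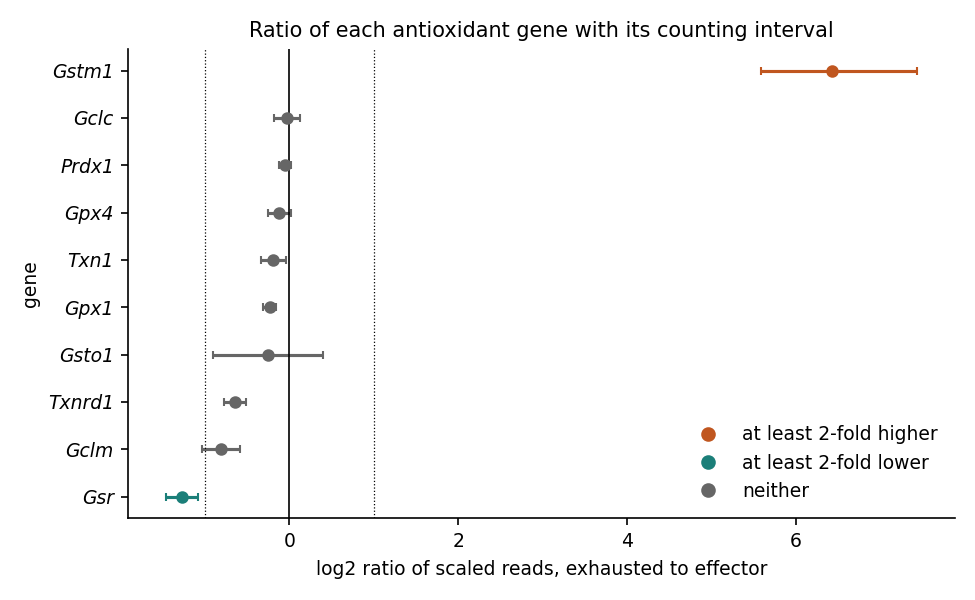
Points give the log2 ratio of scaled reads of exhausted to effector for each of the 10 genes (x), with exact 95% counting intervals, and dotted lines mark 2-fold. Gstm1 is at 6.43 and Gsr at -1.27. The intervals of Gclc, Prdx1, Gpx4 and Gsto1 cross 0, and those of Txn1, Gpx1, Txnrd1 and Gclm lie below it.

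In the thioredoxin branch, the genes of the electron carrier and of a peroxiredoxin it reduces were nearly equal, and that of the reductase was moderately lower. Txn1, which encodes cytosolic thioredoxin (chr4:57943373-57956411), had 771 effector and 730 exhausted reads, 1.14-fold lower in the exhausted library (1.03 to 1.27). Prdx1, which encodes a peroxiredoxin that thioredoxin reduces (chr4:116685544-116700822), had 3532 and 3689 reads, a ratio of 0.966 (0.922 to 1.01). Txnrd1, which encodes the cytosolic thioredoxin reductase (chr10:82859206-82897724), had 1159 and 801 reads and was 1.57-fold lower (1.43 to 1.71). Pseudogenes share 8.99% of the 50-base stretches of Prdx1 and 2.50% of those of Txn1, and the 2 with the most Prdx1 sequence, Gm21399 and Gm7204, had at most 9 reads in a library.

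Gclm and Txnrd1 both passed when the size rule was set to 1.5-fold, so 3 of the 10 genes were then lower, with Gsr, and 1 was higher. At that size 13.6% of all measured genes were lower and 13.7% higher.

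The mitochondrial reductase gene Txnrd2, chosen after its value was seen, differed in the other direction from Txnrd1. Txnrd2 had 190 effector and 346 exhausted reads, 1.68-fold more in the exhausted library (1.41 to 2.02), short of the 2-fold rule. Its share of thioredoxin reductase reads was 13.8% for effector (190 of 1381, 11.98 to 15.7%) and 29.0% for exhausted cells (346 of 1195, 26.4 to 31.6%). Txnrd1 held 83.9% (81.9 to 85.8%) and 67.0% (64.3 to 69.7%).

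None of the 18 other measured genes of the thioredoxin list passed the rule, and their median log2 ratio was 0.031. Txnip, which encodes the inhibitor of thioredoxin, had 4037 and 3602 reads (1.21-fold lower, 1.16 to 1.27). Txn2, which encodes mitochondrial thioredoxin, had 1265 and 1426 reads (1.04-fold higher, 0.966 to 1.12). Among the 6 peroxiredoxins, Prdx1 held 46.6% of effector reads (45.5 to 47.8%) and 51.7% of exhausted reads (50.5 to 52.8%), and Prdx6 held 19.9% (19.0 to 20.8%) and 17.1% (16.3 to 18.0%). Prdx6, which encodes a peroxiredoxin that works with glutathione instead of thioredoxin, had 1508 and 1222 reads (1.33-fold lower, 1.24 to 1.44). No peroxiredoxin passed the 2-fold rule. On the list of peroxiredoxins and repair reductases, 2 of the 11 genes measured besides Prdx1 were higher and none was lower. These were the sestrin genes Sesn2, with 89 and 227 reads (2.36-fold, 1.84 to 3.05), and Sesn3, with 235 and 586 (2.30-fold, 1.98 to 2.69), whereas Sesn1 had 1147 and 956 reads (1.30-fold lower, 1.19 to 1.42). Sestrins are stress-inducible proteins that restrain the growth kinase complex mTORC1. The list's median without Prdx1 was -0.38, opposite in sign to its called genes.

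Levels of different genes were compared as reads per kilobase of the gene length in the table per 1000000 counted reads (RPKM). In the effector library the order was Gpx1 (342.0), Prdx1 (196), Gpx4 (114), Txn1 (93.5), Txnrd1 (43.2), Gsr (36.0), Gclc (24.6), Gclm (11.3), Gsto1 (4.75) and Gstm1 (1.09). No counting interval there overlapped that of the next gene. In the exhausted library Gstm1, at 93.8 RPKM, stood between Gpx4 (105) and Txn1 (81.6), and its interval overlapped that of Gpx4. Gpx1 (290.2) and Prdx1 (189) were again at the top, and Gsr (14.9) stood below Gclc (24.0), while the intervals of Txnrd1 (27.5) and Gclc overlapped. Gclm (6.41) and Gsto1 (3.98) were lowest. With exon lengths of GENCODE M21 in place of those in the table, 5 genes in the effector and 6 in the exhausted library changed place. Gstm1, at 82.1 RPKM, then stood between Prdx1 and Txn1 in the exhausted library, and Gpx1 and Prdx1 were first and second in both.

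**Figure D4:**
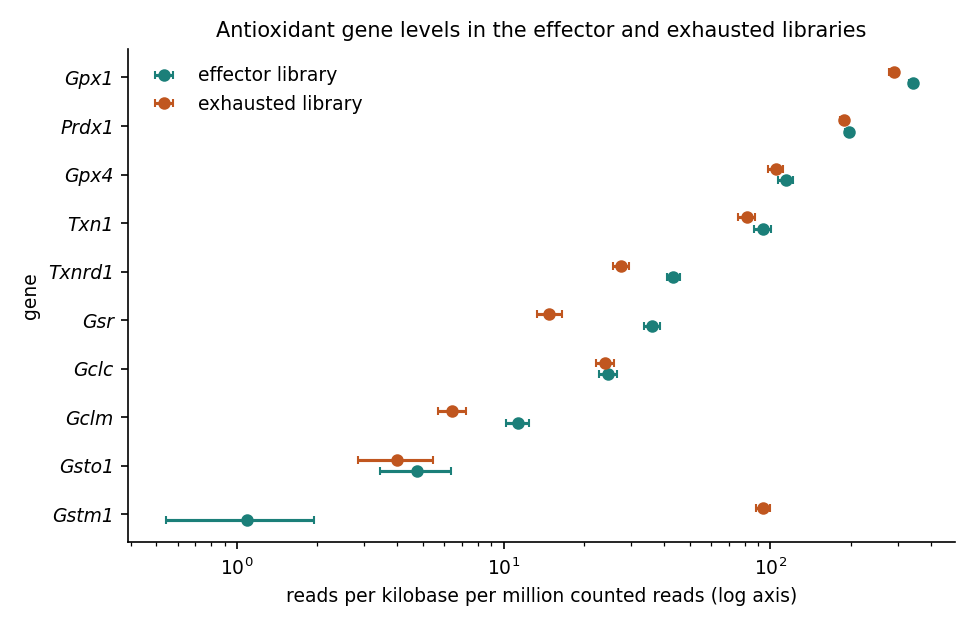
Points give the level of each gene in reads per kilobase per 1000000 counted reads on a log axis (x), with exact 95% Poisson counting intervals, in the effector (green) and exhausted (orange) libraries. Gstm1 moves from 1.09 to 93.8, from the lowest of the 10 to a level near Gpx4 and Txn1, and Gsr from 36.0 to 14.9.

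The surrounding redox genes were taken from 12 lists of 193 distinct genes, of which 183 were not among the 10. Of those, 125 were measured: 5 were higher, 10 were lower and 110 were neither, with a median log2 ratio of -0.06. This compares with 6.65% higher and 7.07% lower over all measured genes.

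Regulators of NRF2 had 1 of 10 measured genes lower and none higher, with a median of -0.12. The lower gene was Cul3, the scaffold of the ubiquitin ligase that marks NRF2 for degradation, with 3210 and 1546 reads (2.25-fold, 2.11 to 2.39). Nfe2l2, the NRF2 gene, had 706 and 621 reads (1.23-fold lower, 1.10 to 1.37) and Keap1, its sensor and the ligase's adaptor, had 542 and 519 (1.13-fold lower, 0.9997 to 1.28), both named after their values were seen. Sqstm1, which encodes the autophagy receptor p62, had 2695 and 2800 reads (1.04-fold lower, 0.987 to 1.10).

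Other known NRF2 targets had 1 higher and 1 lower of 13 measured, with a median of -0.11. Ephx1, the microsomal epoxide hydrolase gene, had 1357 and 4891 reads and was 3.33-fold higher in the exhausted library (3.14 to 3.54). Osgin1, an oxidative stress response gene, had 41 and 18 reads (2.46-fold lower, 1.38 to 4.56). The ferritin genes Ftl1 and Fth1 had 6986 against 9026 and 4708 against 5798 reads, 1.19-fold and 1.14-fold higher. Low counts limited some textbook targets, named after their values were seen: Nqo1 had 7 and 3 reads, Srxn1 had 8 and 4, and Hmox1 had 39 and 33.

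NADPH, which both reductases consume, is supplied by several dehydrogenases, and 2 of 15 measured genes on that list were lower and none higher (median -0.05). Idh1 and Idh2 encode the cytosolic and mitochondrial NADP-dependent isocitrate dehydrogenases. Idh1 had 230 and 62 reads and was 4.01-fold lower (3.02 to 5.40), and Idh2 had 750 and 259 and was 3.13-fold lower (2.72 to 3.62). G6pdx and Pgd, the pentose phosphate dehydrogenase genes, were named after their values were seen. G6pdx had 803 and 1214 reads (1.40-fold more, 1.28 to 1.53) and Pgd had 772 and 1251 (1.498-fold more, 1.37 to 1.64), both short of 2-fold. Exons of G6pdx overlap Ikbkg on the other strand. Me2 had 2122 and 1742 reads (1.32-fold lower, 1.24 to 1.41) and the NAD kinase gene Nadk had 1518 and 1725 (1.05-fold higher, 0.980 to 1.13).

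Of the superoxide and catalase list, which also held subunits of the phagocyte NADPH oxidase, 2 of 7 measured genes were lower and none higher (median -0.35). These were Ccs, the copper chaperone of superoxide dismutase 1, with 465 and 181 reads (2.78-fold, 2.34 to 3.32), and Ncf4, an oxidase subunit gene, with 533 and 159 (3.63-fold, 3.03 to 4.36). Cat, the catalase gene, had 1701 and 1442 reads (1.28-fold lower, 1.19 to 1.37) and Cyba, another oxidase subunit gene, had 2218 and 1480 (1.62-fold lower, 1.52 to 1.73).

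Gpx1, Gpx4 and Txnrd1 are selenoproteins, and the 9 measured genes for selenoprotein synthesis all differed by less than 2-fold (median 0.042). Examples were Sephs1, with 658 and 733 reads (1.03-fold, 0.926 to 1.15), and Rpl30, with 1234 and 1434 (1.07-fold, 0.995 to 1.16). Of the 10 other selenoprotein genes measured, 2 were lower and none higher (median -0.08). Sepp1, the gene of the secreted selenium carrier selenoprotein P, had 2635 and 928 reads (3.07-fold lower, 2.85 to 3.31), and Sepn1 had 43 and 21 (2.21-fold lower, 1.29 to 3.93). The gene Selenof, matched by its Ensembl identifier, had 2384 and 1979 reads (1.30-fold lower, 1.23 to 1.38). On the ferroptosis list, which holds genes of cell death by lipid peroxidation, 1 of 6 was higher and none lower (median -0.23). It was Gch1, the gene of the first enzyme of tetrahydrobiopterin synthesis, with 130 and 402 reads (2.86-fold, 2.34 to 3.51). Acsl4 had 712 and 560 reads (1.38-fold lower, 1.23 to 1.54) and Ncoa4 had 820 and 734 (1.21-fold lower, 1.09 to 1.34).

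**Figure D5:**
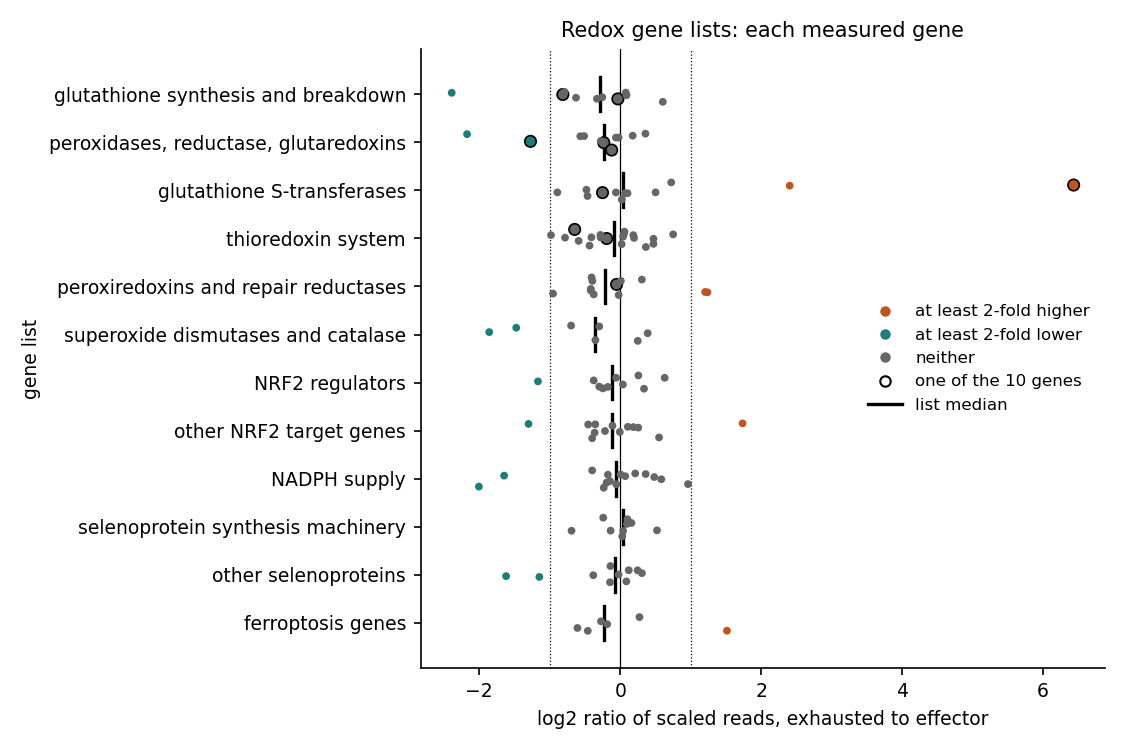
Each point is a measured gene of a redox list, placed by its log2 ratio of exhausted to effector (x) and by list (y); outlined points are the 10 genes, black bars are list medians and dotted lines mark 2-fold. List medians lie between -0.35 and 0.045, and Gstm1 at 6.43 lies apart from all other points.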

How the data were processed

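RNA of sorted TEa cells was made into low-input total RNA libraries, per the labels' protocols. The authors deposited a table of raw read counts, 1 whole number per gene and library, with gene lengths and coordinates. Per the submitters' processing notes, STAR 2.6 and build mm10 were used; the counting program, strand setting and annotation are unknown, not given in the sources used here. The gene length was below the gene's span for all 10 genes and for 75.1% of the table.

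The 2 columns were matched by sample title. Counts were divided by effective library sizes (TMM over measured genes, edgeR 4.0.16, R 4.3.3). Ratio intervals were exact 95% Clopper-Pearson intervals (scipy 1.17.1) of a gene's reads in 1 library among its reads in both. A library at 0 was set to 3 reads. The rule was tested on simulated data that held counting error only, which cannot show how it does with variation between animals or amplified copies. Lists held 265 entries, of which 16 were matched through Ensembl identifiers and 2 had no match. The unmatched entries were Sep15 and Selh, older symbols that the count table does not use. It lists these genes as 15-Sep and 2700094K13Rik, and both were matched through their newer symbols Selenof and Selenoh.

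Named genes were the 10 members, up to 4 called genes per list by size the 2 with most reads, and the mu class and peroxiredoxin families; other redox genes are marked where named. Cell type markers named singly were chosen after their values were seen. Members and lists were chosen with earlier results of these data known. No gene was named for a similar pattern, since 2 libraries give each gene a single ratio. Exon overlap and shared stretches used GENCODE M21. Some marker and overlapping genes are not reported here. Alternatives changed the scaling (DESeq2 1.42.0, total counts, upper quartile), read minimum, size rule, depth, genes scaled, prior count, list summary and motif. Gene length was an alternative chosen after seeing the data.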

Additional observations from a re-analysis of the deposited data

How the results depend on the processing

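Each of the 10 genes kept its direction under every alternative that recomputed its ratio and gave it a value. These were DESeq2 size factors, total counts, upper quartile and minimums of 10 or 500 reads. The others were thinning of the exhausted library, protein-coding genes only and a prior count of 2. Other size rules leave the ratio as it is and could not turn a direction. The intervals of Gclc, Prdx1, Gpx4 and Gsto1 include equality, so counting error alone leaves their direction open. Gsto1 had too few reads for the minimum of 500. The log2 ratio of Gstm1 ranged from 6.21 (prior count) to 6.45 and that of Gsr from -1.28 to -1.23. Only the size rule changed calls among the 10. At 1.5-fold, 3 were lower because Gclm (-0.81) and Txnrd1 (-0.65) passed; at 4-fold, 0 were lower because Gsr (-1.27) did not. Over the redox lists, 11 genes were higher and 22 lower at 1.5-fold, 2 and 3 at 4-fold, 4 and 9 with an interval wholly beyond 2-fold, when Sesn2, Sesn3, Osgin1 and Sepn1 did not pass, and 7 were lower with at least 500 reads, when fewer genes were tested. Over all measured genes, 1371 were higher and 1359 lower at 1.5-fold, 220 and 238 at 4-fold, 408 and 453 with an interval wholly beyond 2-fold, and 244 and 264 with at least 500 reads. On the thioredoxin list, 1 gene passed as lower after thinning, against none before. Requiring a purine before the motif left 2 of the 3 genes, Prdx1 and Txnrd1. Summed reads in place of the median gave 0.30 for glutathione synthesis and breakdown, where Mat2a holds most reads, against a median of -0.29, 0.38 against -0.11 for other NRF2 targets, and -0.02 against 0.04 for selenoprotein synthesis. With at least 500 reads, when fewer genes were tested, the median turned from -0.29 to 0.02 for synthesis and breakdown, from 0.045 to -0.47 for transferases and from -0.05 to 0.03 for NADPH supply. With at least 10 reads the transferase median was -0.02. No paired analysis was possible because each group has 1 library.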
